A study of Mus musculus with 4 samples.

Results

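The genes described here mark the mural cells of blood vessels or regulate them. They are 10 genes chosen by name: the smooth muscle contractile genes Myh11, Lmod1 and Smtn, the pericyte and vessel wall genes Pdgfrb, Rgs5, Notch3, Cspg4 and Mcam, and the regulators Myocd and Srf. Each of the 10 stood on a single row of the deposited expression table, which holds 23352 gene symbols, and all 10 passed the filter on low values, a mean of at least 1 FPKM. The WT libraries alone would have taken each of them past that filter, since the lowest WT mean among them was 1.28 FPKM (Lmod1).

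Mural cells wrap the endothelial tube. Smooth muscle cells form the contractile wall of arteries and veins, and pericytes sit on capillaries, which are dense in the heart. Pericytes are recruited by PDGF-B, which endothelial cells release and the receptor Pdgfrb binds, and the maturation of arterial smooth muscle needs Notch3. The transcription factor SRF binds a DNA element called the CArG box, and with its coactivator myocardin (Myocd) it switches on smooth muscle contractile genes. Both factors are also expressed in cardiac muscle cells, so neither is a marker of mural cells in ventricle.

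Polyadenylated RNA came from ventricles of male mice of the C57BL/6 background at postnatal day 21. In 2 libraries Cdk8, the kinase subunit of the Mediator complex, was overexpressed in a cardiac specific manner (Cdk8Tg), and 2 libraries were wild type (WT). Neither the promoter that drives the transgene nor the number of founder lines is stated in the labels. The labels also do not state that each library had an animal of its own, so p-values measure the spread between these libraries, which may be technical. Values are FPKM, fragments scaled to transcript length and to library size, so that levels of different genes can be compared. Steps between the lowest FPKM implied 12.1 to 14.4 M (mega) fragments per library, if each library was scaled by its own total. Cdk8 reached 7309 and 8122 FPKM in the Cdk8Tg libraries against 7.89 and 9.86 FPKM in the WT libraries, which checks the labels.

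Libraries of the same group differed in genes used as markers of other tissue. Ucp1, the uncoupling protein of brown fat, was at 10.7 FPKM in Cdk8Tg replicate 2 and listed at 0 in the other 3 libraries, and Adipoq, the fat cell hormone adiponectin, was at 3.08 FPKM there against 0.071 in Cdk8Tg replicate 1, 0.310 in WT replicate 1 and 0.062 in WT replicate 2. The sum over the 7 fat markers, mostly Fabp4, which endothelium also expresses, was 757 and 944 FPKM in Cdk8Tg replicates 1 and 2, and 955 and 1015 FPKM in WT replicates 1 and 2. Of 6 atrial markers, Nppa and Myl4 were highest in Cdk8Tg replicate 2, at 2072 and 281 FPKM, and Myl7 and Sln in WT replicate 1, at 136 and 43.8 FPKM. The atrial sum was 864 and 2419 FPKM in Cdk8Tg replicates 1 and 2, and 673 and 227 FPKM in WT replicates 1 and 2. In Cdk8Tg replicate 2 most of that sum was Nppa, which was also called higher in Cdk8Tg. Nppa and Myl4 are both on the list of SRF targets used below, so neither marks atrial tissue alone. The part of these libraries in the results was not tested, and values without each of them are given for the members whose call or direction turned on it.

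For the regulator with SRF sites, the member that fell and a smooth muscle gene outside the 10 that rose, the 250 bases before the RefSeq transcription start are printed (GRCm38.p6, 5′ to 3′ on the gene's strand). Capitals mark a CArG box or the RBPJ core, TGGGAA, both searched on both strands. RBPJ is the DNA-binding effector of Notch receptors. The Srf window is chr17:46556163-46556412 on the minus strand, the Smtn window chr11:3539293-3539542 on the minus strand and the Myl9 window chr2:156775214-156775463 on the plus strand.
Srf: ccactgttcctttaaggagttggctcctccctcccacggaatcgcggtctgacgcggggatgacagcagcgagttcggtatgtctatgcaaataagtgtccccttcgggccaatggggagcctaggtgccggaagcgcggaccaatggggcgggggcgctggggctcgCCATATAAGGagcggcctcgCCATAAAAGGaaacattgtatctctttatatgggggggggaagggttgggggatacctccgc
Smtn: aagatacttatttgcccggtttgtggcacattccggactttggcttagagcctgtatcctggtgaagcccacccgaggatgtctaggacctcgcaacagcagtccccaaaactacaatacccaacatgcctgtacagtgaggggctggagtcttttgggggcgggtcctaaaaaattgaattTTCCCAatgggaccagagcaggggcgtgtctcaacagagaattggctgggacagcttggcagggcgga
Myl9: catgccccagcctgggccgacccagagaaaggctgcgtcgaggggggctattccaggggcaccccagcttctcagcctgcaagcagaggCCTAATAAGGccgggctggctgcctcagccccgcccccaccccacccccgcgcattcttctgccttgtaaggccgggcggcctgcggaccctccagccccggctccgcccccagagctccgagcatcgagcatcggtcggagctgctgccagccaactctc

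The Srf window held 2 CArG boxes, starting at -82 and -62 where -1 is the base before the start. A CArG box occurred in 1.47% of 32851 promoter windows of this length, and 2 or more in 6 of them. Myh11 and Myocd had no promoter entry, and Pdgfrb, on chromosome 18, was left out. Of the 7 members with a promoter entry used here (Srf, Smtn, Lmod1, Rgs5, Mcam, Cspg4 and Notch3), only Srf had a match to the CArG box in this window. The window of Smtn held an RBPJ core at -68, a match found in 21.6% of all windows, and none of the other 6 members had one. In Myl9 the CArG box started at -161. It was 1 of 5 genes with a CArG box among 29 other contractile genes with an entry, and the windows of Cnn1 and Tpm2, which rose more than Myl9, held none. A match describes these letters only, and its absence from a window of 250 bases says nothing about binding elsewhere.

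Among the mural cell genes, Myocd rose and Smtn fell in Cdk8Tg ventricles, and the other 8 did not pass the test. The test was limma on log2(FPKM + 1) with Benjamini-Hochberg adjustment over 11888 rows, and an adjusted p under 0.05 was called. Over all tested genes 24.9% were called, 16.9% as higher and 7.98% as lower, so a count of 2 in 10 was near the background. The members' median log2 change was 0.23, against 0.13 for all tested genes. Libraries of the groups did not overlap for 6 members, 4 of them higher in Cdk8Tg (Cspg4, Mcam, Myocd and Srf) and 2 lower (Rgs5 and Smtn), while 49.2% of tested genes lay apart and higher and 21.1% apart and lower. The 10 members summed to 321 and 331 FPKM in the Cdk8Tg libraries and to 324 and 326 FPKM in the WT libraries. In the authors' deposited table, 1 of the 10 passed a q-value of 0.05, again Smtn as lower, where 8.43% of the genes tested there passed as lower and 14% in either direction.

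**Figure D1:**
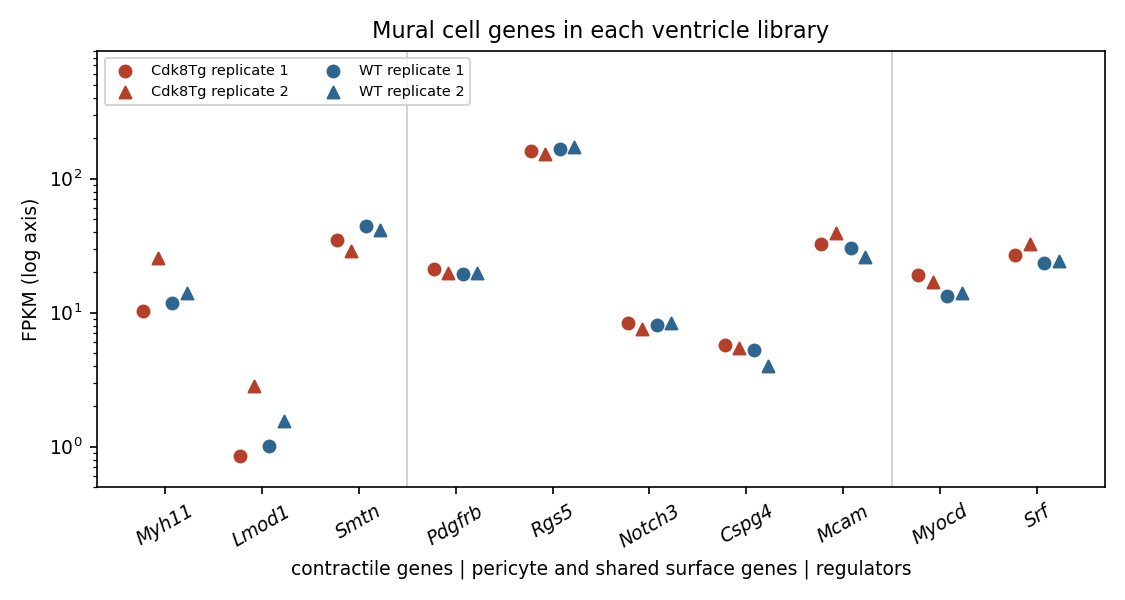
FPKM of the 10 members in each of the 4 libraries, on a log axis, with 1 symbol per library (red Cdk8Tg, blue WT, circles replicate 1, triangles replicate 2). Rgs5 is the highest at 153 to 173 FPKM, and the triangle of Cdk8Tg replicate 2 stands above the other libraries for Myh11 (25.5 FPKM) and Lmod1 (2.84 FPKM).

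Deposited FPKM carry a shift between the groups. After median-of-ratios scaling, which moved the median change of all tested genes from 0.13 to 0.00, no member was called higher (background 7.96%) and Smtn alone was called lower (background 11.7%), where 19.6% of all genes were called in either direction. The members' median was then 0.13. With every library scaled to the same FPKM sum, which moved the median of all genes to 0.30, Myocd, Mcam and Srf were called higher where 41.2% of all genes were, and Smtn lost its call (log2 change -0.23, limma adjusted p = 0.12).

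Among wild-type ventricles the members differed widely in level. Rgs5 had a mean of 170 FPKM, Smtn 42.9, Mcam 28.3, Srf 23.9, Pdgfrb 19.6, Myocd 13.6, Myh11 12.9, Notch3 8.19, Cspg4 4.66 and Lmod1 1.28 FPKM (n = 2). In that order the libraries of Myocd and Myh11 overlapped, and those of all other neighbours did not. In Cdk8Tg the mean of Mcam, at 35.6 FPKM, lay above that of Smtn, at 31.8 FPKM, but their libraries overlapped.

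Of the contractile members, smoothelin fell, and the direction of Myh11 and Lmod1 turned on a single library. Smtn encodes smoothelin, an actin-associated protein of contractile smooth muscle. It measured 34.6 and 28.9 FPKM in the Cdk8Tg libraries against 44.7 and 41.0 FPKM in the WT libraries. Both Cdk8Tg libraries lay below both WT libraries, with means of 31.8 ± 4.02 and 42.9 ± 2.58 FPKM (SD, n = 2 each). This gave a log2 change of -0.43 ± 0.11 (SE), which passed (limma adjusted p = 0.046), with a 95% interval from -0.71 to -0.14. After median-of-ratios scaling it was -0.57 ± 0.12 (SE; limma adjusted p = 0.027). The authors' deposited table gave 36.2 FPKM in Cdk8Tg, 54.2 FPKM in WT and a q-value of 0.010. Its group values are not on the scale of the library values, and they lay further above the library means in WT than in Cdk8Tg. For Rgs5 they were 216 FPKM in WT and 179 FPKM in Cdk8Tg, against library means of 170 and 157 FPKM. The call was lost when Cdk8Tg replicate 2 (limma adjusted p = 0.13), WT replicate 1 (0.19) or WT replicate 2 (0.14) was left out, with log2 changes of -0.30, -0.37 and -0.49. Smtn lies on chromosome 11 at 3517522 to 3539292 of mm10, and exons of the antisense genes Gm11946 and Gm11947 overlap its exons. No source used here states whether the counting used strand, so reads of these genes cannot be told apart from those of Smtn.

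Myh11 encodes the smooth muscle myosin heavy chain, the motor of the contractile apparatus and a defining marker of smooth muscle. Its level was 10.3 and 25.5 FPKM in the Cdk8Tg libraries against 11.8 and 13.9 FPKM in the WT libraries. Cdk8Tg replicate 2 was the highest of the 4 libraries and Cdk8Tg replicate 1 the lowest, so the groups overlapped. A log2 change of 0.33 ± 0.38 (SE) resulted (limma adjusted p = 0.55). Without Cdk8Tg replicate 2 it was -0.29 (limma adjusted p = 0.22), and without Cdk8Tg replicate 1 it was 0.94 (limma adjusted p = 0.016, with 20.0% of all genes called). Of its stretches of 31 bases, 0.90% also occur in other annotated genes, mainly the nonmuscle myosins Myh10, Myh14 and Myh9. The same share was 1.35% for Notch3, 0.71% for Myocd and at most 0.20% (Mcam) for the other members. The gene (ENSMUSG00000018830.10) lies on chromosome 16 at 14194535 to 14291372 of GRCm38.

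Lmod1, leiomodin 1, nucleates actin filaments in smooth muscle and was the least abundant member. The Cdk8Tg libraries held 0.855 and 2.84 FPKM and the WT libraries 1.01 and 1.55 FPKM, with the same library highest and the same library lowest as for Myh11. At the implied depth, and over a transcript of 3948 bases, these values rest on about 42.1, 135, 57.3 and 87.5 fragments. Its log2 change was 0.24 ± 0.35 (SE; limma adjusted p = 0.64), and -0.29 without Cdk8Tg replicate 2 (limma adjusted p = 0.37).

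**Figure D2:**
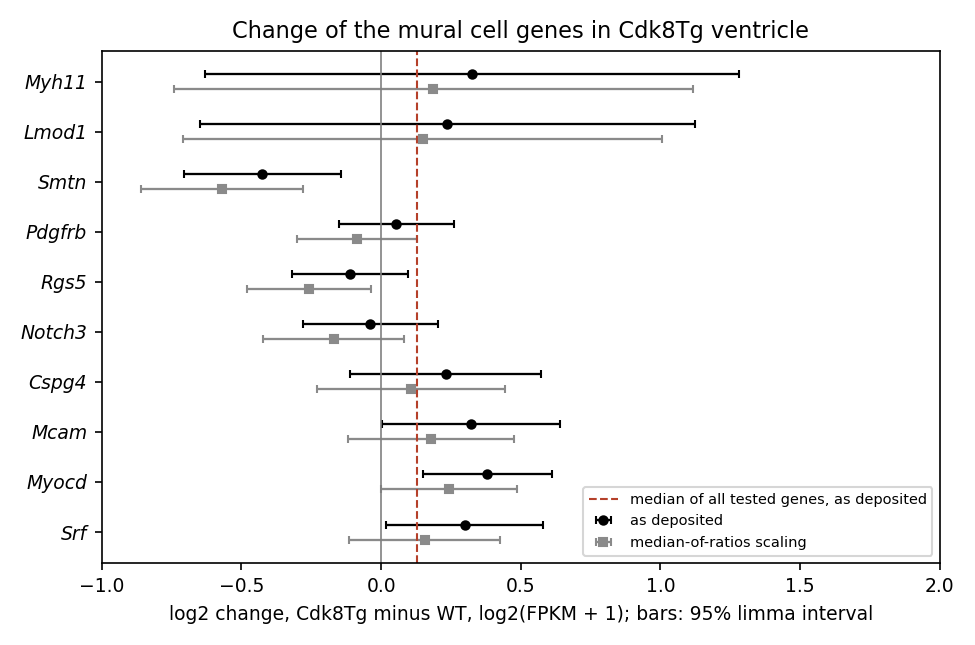
Log2 change of each member, Cdk8Tg minus WT, on the log2(FPKM + 1) scale with the 95% limma interval, as deposited (black circles) and after median-of-ratios scaling (grey squares). The intervals are not adjusted for the number of genes tested. The dashed line is the median of all tested genes as deposited, 0.13. The interval of Smtn lies below 0 on both scales, those of Myocd, Mcam and Srf lie above 0 as deposited and reach below 0 after scaling, that of Rgs5 lies below 0 after scaling, and those of Myh11 and Lmod1 are the widest.

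None of the 5 pericyte and vessel wall genes was called by limma as deposited or in the authors' deposited table. Rgs5, a regulator of G protein signalling and the most abundant member, measured 162 and 153 FPKM in the Cdk8Tg libraries against 167 and 173 FPKM in the WT libraries. Both Cdk8Tg libraries were lower than both WT libraries, and the ratio of the means was 0.925. On the log2 scale the change was -0.11 ± 0.08 (SE; limma adjusted p = 0.35), with a 95% interval from -0.32 to 0.10. After median-of-ratios scaling it was -0.26 (limma unadjusted p = 0.029, adjusted p = 0.098).

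Pdgfrb, the receptor for PDGF-B, had the narrowest interval of the members. Its level was 21.1 and 19.7 FPKM in the Cdk8Tg libraries against 19.4 and 19.7 FPKM in the WT libraries, and the groups overlapped. A log2 change of 0.05 ± 0.08 was found (SE; limma adjusted p = 0.64), with a 95% interval from -0.15 to 0.26. After median-of-ratios scaling it was -0.087, with an interval from -0.30 to 0.13.

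Notch3, the Notch receptor of mural cells, measured 8.43 and 7.49 FPKM in the Cdk8Tg libraries against 8.06 and 8.31 FPKM in the WT libraries. The highest and the lowest of the 4 values were both from Cdk8Tg, so the groups overlapped. Its log2 change was -0.04 ± 0.10 (SE; limma adjusted p = 0.79), with a 95% interval from -0.28 to 0.20. Exons of the antisense gene Gm17276 overlap those of Notch3.

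Cspg4 encodes NG2, a chondroitin sulfate proteoglycan on the surface of pericytes. It was found at 5.78 and 5.42 FPKM in the Cdk8Tg libraries against 5.30 and 4.02 FPKM in the WT libraries, with WT replicate 2 apart from the other 3 libraries. The groups did not overlap, and the log2 change of 0.23 ± 0.14 (SE; limma adjusted p = 0.25) was 0.068 without WT replicate 2. Mcam, or CD146, is an adhesion molecule of mural and endothelial cells. It measured 32.3 and 39.0 FPKM in the Cdk8Tg libraries against 30.45 and 26.1 FPKM in the WT libraries. The groups lay apart, with a log2 change of 0.32 ± 0.13 (SE; limma unadjusted p = 0.049, adjusted p = 0.12). Exons of the antisense gene Gm10687 overlap those of Mcam.

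For both regulators, each Cdk8Tg library was above each WT library. Myocd measured 19.0 and 17.1 FPKM in the Cdk8Tg libraries against 13.3 and 13.9 FPKM in the WT libraries. The means were 18.0 ± 1.37 and 13.6 ± 0.426 FPKM (SD, n = 2 each), a ratio of 1.33. Its log2 change of 0.38 ± 0.09 (SE) passed (limma adjusted p = 0.037), with a 95% interval from 0.15 to 0.61. After median-of-ratios scaling it was 0.24 and not called (limma adjusted p = 0.14), and in the authors' deposited table the q-value was 0.41. Leaving out any 1 library ended the call, with log2 changes of 0.31 to 0.45 and limma adjusted p from 0.063 to 0.15. The gene lies on chromosome 11 at 65176571 to 65269989 of mm10.

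Srf measured 26.9 and 32.7 FPKM in the Cdk8Tg libraries against 23.4 and 24.5 FPKM in the WT libraries, and the means were 29.8 ± 4.09 and 23.9 ± 0.726 FPKM (SD, n = 2 each). Cdk8Tg replicate 2 was the highest of the 4 and WT replicate 1 the lowest. A log2 change of 0.30 ± 0.11 did not pass (SE; limma unadjusted p = 0.042, adjusted p = 0.11), and it was 0.16 after median-of-ratios scaling. Without Cdk8Tg replicate 1 it was 0.43 and called (limma adjusted p = 0.044), and without Cdk8Tg replicate 2 it was 0.16.

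Within Cdk8Tg, Myh11 and Lmod1 were far higher in replicate 2 than in replicate 1, and so were several other smooth muscle genes. Replicate 2 over replicate 1 was 2.46 for Myh11 and 3.32 for Lmod1, and 3.27 for Tagln (transgelin), 3.76 for Actg2 (smooth muscle gamma-actin), 2.94 for Itga8 (an integrin of smooth muscle) and 1.62 for Acta2 (smooth muscle alpha-actin). The same ratio within WT was 1.17 for Myh11, 1.53 for Lmod1, 1.04 for Tagln, 0.685 for Actg2, 1.05 for Itga8 and 1.01 for Acta2. On the log2(FPKM + 1) scale the Cdk8Tg difference of Myh11 lay above that of 99.5% of tested genes, and that of Lmod1 above 99.4%. Of the 5 pericyte and vessel wall members the Cdk8Tg ratios were 0.941 for Rgs5, 0.935 for Pdgfrb, 0.889 for Notch3, 0.938 for Cspg4 and 1.21 for Mcam, and that of Smtn was 0.836. Over whole lists, replicate 2 was the higher in Cdk8Tg for 28 of 33 other contractile genes (median ratio 1.25, from 0.898 to 3.76). It was the higher for 16 of 24 other pericyte genes (median 1.06, from 0.607 to 1.45) and for 54.8% of all tested genes (median 1.02). Within WT, replicate 2 was the higher for 15 of 33 and 9 of 24 genes of these lists, against 45.5% of all tested genes. The single genes set beside the members in this paragraph were chosen after their values were seen, and Cdk8Tg replicate 2 is the library with Ucp1 and Adipoq.

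**Figure D3:**
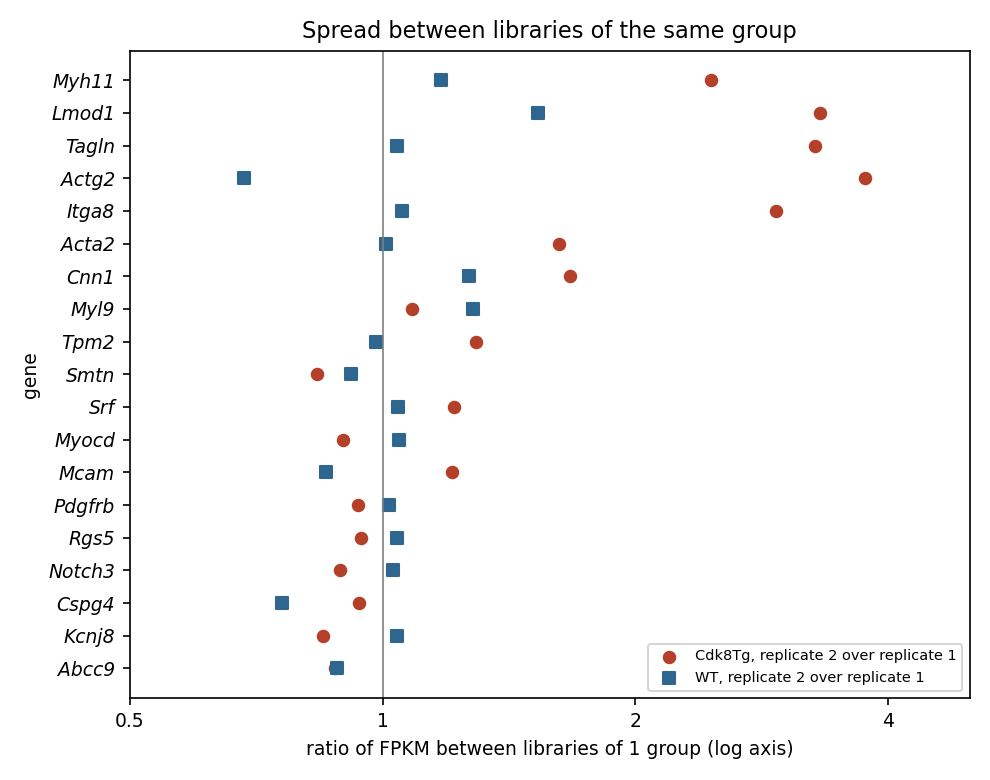
Ratio of FPKM in replicate 2 to replicate 1 within each group (red circles Cdk8Tg, blue squares WT, log axis) for the members and other smooth muscle or pericyte genes. Myh11, Lmod1, Tagln, Actg2 and Itga8 lie between 2.46 and 3.76 in Cdk8Tg, Mcam lies at 1.21, and the other pericyte genes drawn (Pdgfrb, Rgs5, Notch3, Cspg4, Kcnj8 and Abcc9) lie below 1.

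A list of other contractile genes of smooth muscle and related cells, which holds none of the members, had 33 tested genes. It also holds genes of cardiac muscle and of nonmuscle cells, such as Tpm1, Actn1, Myl6 and Myh10. Which cells gave each change was not tested. Of these 13 rose and 1 fell, with a median log2 change of 0.50, and after median-of-ratios scaling 11 rose and 2 fell, with a median of 0.36. Without Cdk8Tg replicate 2 the median was 0.20 and 10 rose, where 5.91% of all genes were called higher. Cnn1, the smooth muscle calponin, measured 48.1 and 80.5 FPKM in the Cdk8Tg libraries against 1.34 and 1.70 FPKM in the WT libraries, a log2 change of 4.65 ± 0.24 (SE; limma adjusted p = 0.0016). Tpm2, beta-tropomyosin, rose by 3.45 and Myl9, a regulatory myosin light chain, by 3.18, with no overlap between groups. Actn1, the nonsarcomeric alpha-actinin, rose by 1.32, Ntn4, a basement membrane netrin, by 0.99 and Myl6, the essential light chain of smooth and nonmuscle myosin, by 0.88. The fall was Tpm1, alpha-tropomyosin, which is also abundant in cardiac muscle, by 0.81. Calls became fewer when a WT library was left out. This list had 4 rises without the first WT replicate, where 3.02% of all genes were called higher, and 3 rises without the second, where 1.22% were. With no filter on low values 6 rose, where 3.57% of all genes did.

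Acta2, Tagln, Mylk and Synpo2 of that list did not pass as deposited. Acta2 measured 317 and 513 FPKM in the Cdk8Tg libraries against 266 and 268 FPKM in the WT libraries, with a log2 change of 0.59 (limma adjusted p = 0.11). Tagln measured 27.4 and 89.7 FPKM in the Cdk8Tg libraries against 30.8 and 32.1 FPKM in the WT libraries, a log2 change of 0.65 (limma adjusted p = 0.38). Mylk, the kinase that phosphorylates smooth muscle myosin light chains, had a log2 change of -0.03 (limma adjusted p = 0.90), and Synpo2, an actin-binding protein of smooth and striated muscle, one of -0.29 (limma adjusted p = 0.067). After median-of-ratios scaling the change of Synpo2 was -0.43 and called lower (limma adjusted p = 0.028), and the other genes of this paragraph stayed uncalled.

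**Figure D4:**
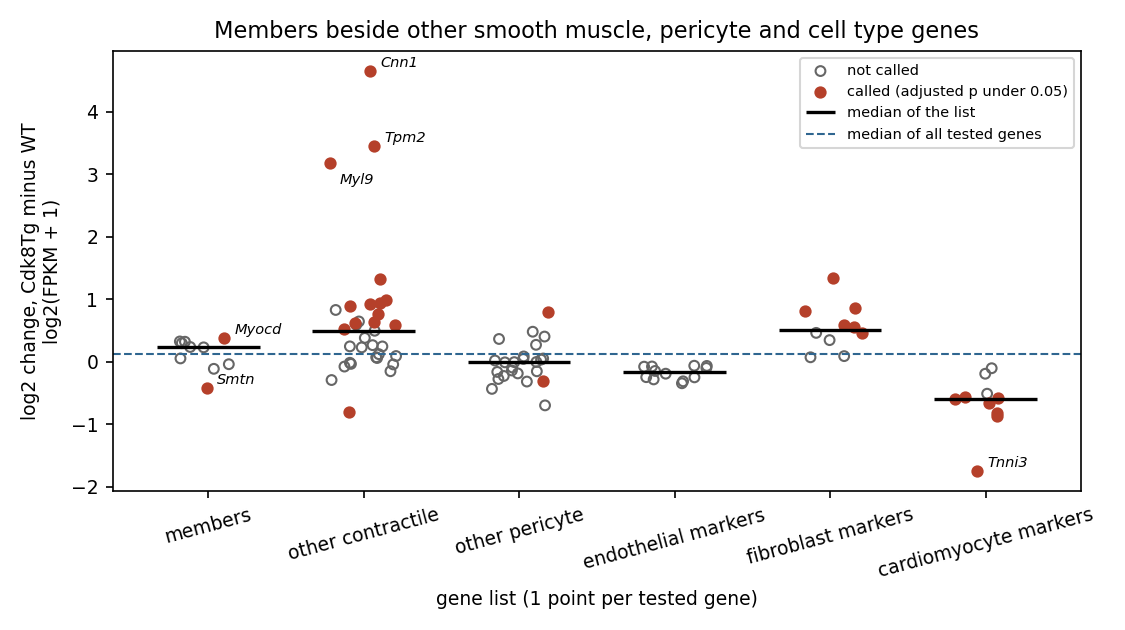
Log2 change of every tested gene in 6 lists, Cdk8Tg minus WT on the log2(FPKM + 1) scale, with filled points for genes called by limma, a black bar at each list's median and a dashed line at the median of all tested genes (0.13). The members lie between -0.43 and 0.38, while Cnn1, Tpm2 and Myl9 of the other contractile genes lie above 3.

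A further list held 26 other pericyte genes. Of 24 tested, 1 rose and 1 fell, with a median log2 change of -0.0061, or -0.15 after median-of-ratios scaling, which gave 1 rise and 2 falls. Neither the rise nor the fall kept its call when a WT library was left out, and calls over all tested genes also became fewer. The rise was Heyl, a Notch target of the hairy family expressed in mural cells, at 11.3 and 14 FPKM in the Cdk8Tg libraries against 7.35 and 6.34 FPKM in the WT libraries (log2 change 0.80 ± 0.13, SE; limma adjusted p = 0.016). The fall was Ndufa4l2, a mitochondrial subunit paralog typical of pericytes, by 0.30 (limma adjusted p = 0.0497). Kcnj8 and Abcc9, which form an ATP-sensitive potassium channel of pericytes, had log2 changes of -0.0045 and 0.04.

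For the partners of Notch3 and Pdgfrb, as for all lists, the share called over all genes is 24.9%. Of 36 tested Notch pathway genes, 4 rose (Heyl, Mib1, Pofut1 and Itch) and 0 fell by limma, with a median log2 change of 0.08, and after median-of-ratios scaling 2 rose and 3 fell, with a median of -0.048. Rises became fewer without Cdk8Tg replicate 2 or either WT library, as they did over all tested genes. The median was then 0.022 to 0.068. The authors' deposited table called 2 higher and 1 lower, where 14% of the genes tested there passed in either direction. Jag1, the ligand that endothelial cells present to Notch3, measured 2.80 and 3.43 FPKM in the Cdk8Tg libraries against 3.01 and 3.18 FPKM in the WT libraries, and Rbpj, the effector, had a log2 change of 0.09 (limma adjusted p = 0.51). Of 22 genes of the PDGF pathway, 6 rose and 1 fell, with a median of 0.21, and after median-of-ratios scaling 2 rose and 2 fell, with a median of 0.068. With any 1 library left out these rises also became fewer, as over all tested genes, and the median was 0.17 to 0.26. Pdgfb, the ligand of Pdgfrb, had a log2 change of 0.08 (limma adjusted p = 0.58). Pdgfra, the PDGF receptor of fibroblasts, rose by 0.47, the kinase gene Src by 0.92 and the ligand gene Pdgfc by 0.58, and Pik3r1, the regulatory subunit of phosphoinositide 3-kinase, fell by 1.26.

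Among 37 tested partners and cofactors of SRF, 9 rose and 2 fell, with a median log2 change of 0.133 against 0.127 for all genes, and after median-of-ratios scaling 5 rose and 2 fell, with a median of 0.028. Leaving out any 1 library gave fewer rises, as it did over all tested genes, and medians of 0.11 to 0.20. The rises included the cardiac factors Gata4, by 0.79, and Tbx20, by 0.98, and the LIM proteins Csrp1 and Csrp2, by 1.11 and 0.70, which link SRF to GATA factors in smooth muscle. The falls were Fhl2, a LIM protein that binds SRF and restrains it, by 1.26, and Cebpb, a leucine zipper factor, by 1.28. The other coactivators of the myocardin family, Mkl1 and Mkl2, had log2 changes of 0.13 and 0.21 and were not called. Of 26 tested genes on a list of known SRF targets, 8 rose and 1 fell, with a median of 0.44, and after median-of-ratios scaling 5 rose and 1 fell. The lists overlap: Pdlim7, which rose, and Vcl are also among the other contractile genes. Fhl2, the fall here, is also among the SRF partners. Without Cdk8Tg replicate 2 the median of the SRF targets was 0.26. Their rises were fewer without that library or either WT library, as were those over all tested genes. Acta1, skeletal alpha-actin, rose by 3.11 and Tgfb1i1 (Hic-5), a focal adhesion protein, by 1.32, whereas Vcl (vinculin) had a change of 0.25 (limma adjusted p = 0.072) and Fos 0.40 (limma adjusted p = 0.074).

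Of 28 tested paralogs of the members, 5 rose and 5 fell, and after median-of-ratios scaling 2 rose and 5 fell. Their median log2 change was 0.076, and it ran from 0.0078 without WT replicate 1 to 0.072 without WT replicate 2 over single libraries left out. Calls became fewer when any 1 library was left out, as they did over all tested genes. The nonmuscle myosin Myh10 rose by 0.92 and its relative Myh14 fell by 0.996. Lmod2, the leiomodin of cardiac muscle, measured 217 and 251 FPKM in the Cdk8Tg libraries against 321 and 391 FPKM in the WT libraries and fell by 0.60, and Lmod3 had a log2 change of 0.14. Rgs2, another regulator of G protein signalling, measured 6.08 and 5.93 FPKM in the Cdk8Tg libraries against 26.4 and 16.5 FPKM in the WT libraries, a fall by 1.64. Notch1, Notch2 and Notch4 had log2 changes of -0.10, -0.15 and -0.19 and were not called.

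Markers of other cells in the ventricle differed in direction. Fewer cells of a type and less RNA per cell cannot be told apart in these bulk samples. None of 12 endothelial markers was called by limma, and 0 had an unadjusted p under 0.05, while the authors' deposited table called 1 lower. Their sum was 401 and 383 FPKM in the Cdk8Tg libraries against 429 and 445 FPKM in the WT libraries. Of 10 fibroblast markers 6 rose (4 after median-of-ratios scaling, and 3 in the authors' deposited table), with sums of 1192 and 1531 FPKM against 995 and 914 FPKM. Of 10 cardiomyocyte markers 7 fell (2 of 9 in the authors' deposited table), with sums of 39464 and 37561 FPKM against 58521 and 56151 FPKM. Of 8 tested macrophage and leukocyte markers 3 fell (3 of 9 in the authors' deposited table), with sums of 93.1 and 117 FPKM against 144 and 135 FPKM. In these 4 lists 0 genes were at 0 in all libraries, and their part in the values of the mural genes was not tested.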

How the data were processed

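The members, lists and tests were chosen with earlier results of these data known. RNA was extracted with Trizol and made into stranded TruSeq libraries, per the labels' protocols. Reads were aligned with TopHat (app version 1.0.0) to mm10 and passed to Cufflinks and Cuffdiff, per the submitters' processing notes, which name no annotation and no scaling. The deposited tables give FPKM per gene and library, and FPKM per gene and group with a p-value and q-value from the authors' Cuffdiff run, whose fold changes were computed here from its group FPKM. For every member these group FPKM lay above the library means, by more in WT than in Cdk8Tg, so the authors' fold changes are on another scale.

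Since FPKM hold no counts, limma 3.58.1 (R 4.3.3) was fitted to log2(FPKM + 1) over all 4 libraries, with a trended empirical Bayes variance, no covariates and 2 residual degrees of freedom. The 11888 rows with a mean of at least 1 FPKM were tested, and an adjusted p under 0.05 was called. On this scale changes of low genes such as Lmod1 are understated. The procedure was tested on simulated data. Named genes were the members, Cdk8 and up to 6 called genes per list by smallest p, and others were named after their values were seen. Marker lists of Schwann, epicardial and proliferating cells had only 4, 3 and 7 tested genes. They gave 0 calls by limma, with 1, 0 and 2 genes at an unadjusted p under 0.05, and 0 calls in the authors' table. The atrial list gave 1 rise, Nppa, among 5 tested genes, and 2 higher and 2 lower in the authors' table. The fat list gave 0 calls among 3 tested genes (0 at an unadjusted p under 0.05, and 1 higher in the authors' table). Of 12 defining mural markers, most of which are members, 1 fell, again Smtn. Exons and stretches of 31 bases came from GENCODE M21, and promoters from RefSeq, both on GRCm38. Depth was estimated from the spacing of low FPKM in 215 to 228 genes with 1 transcript of over 2 kb. Alternatives covered pseudocounts, filters, scaling, variance models, the replicate number as a block, each library left out and the authors' calls.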

Additional observations from a re-analysis of the deposited data

How the results depend on the processing

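With 2 libraries per group, few settings kept both calls. Myocd was the 1 member called higher, and that count was 0 with no filter on low values, with median-of-ratios scaling, with quantile normalization, without a variance trend and in the authors' table, and 3 with equal FPKM sums. Smtn was the 1 member called lower, and that count was 0 with no filter, with quantile normalization, with equal FPKM sums and without a variance trend. Leaving out any 1 library changed which members were called, with 1 residual degree of freedom and a lone sample assumed to vary like the other group. Calls over all tested genes also became fewer. With the replicate block the counts were 1 and 1. The replicate numbers did not pair the libraries (correlation of deviations -0.026).

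The sign of small changes turned for Pdgfrb with median-of-ratios scaling (-0.087), quantile normalization (-0.054) and the authors' values (-0.099), for Rgs5 (0.085) and Notch3 (0.14) with equal FPKM sums, and without Cdk8Tg replicate 2 for Notch3 (0.037), Myh11 (-0.29) and Lmod1 (-0.29). Over single libraries left out, Myh11 ran from -0.29 to 0.94, Lmod1 from -0.29 to 0.76 and Notch3 from -0.11 to 0.037. Causes were not tested. Of 149 member values under an alternative, 121 kept their direction and side of the threshold, most of them for members not called in the main fit. In 16 the call of Myocd or Smtn was lost. A mean of at least 5 FPKM left Lmod1 untested. Cdk8 kept its call throughout, with log2 changes of 9.12 to 9.80. The 13 rises among other contractile genes were 6 with no filter and 9 in the authors' table, and 3 to 19 with a library left out. The lowest implied fragment number of a member was about 42.1, for Lmod1 in Cdk8Tg replicate 1.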
